A study of Mus musculus with 24 samples.

Results

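The mouse mitochondrial genome carries 37 genes, and all 37 were found among the 55416 gene IDs of the count table by the prefix mt- of their symbols: 13 mRNAs, 2 rRNAs and 22 tRNAs. No measured value entered this choice. They were followed through 24 kidney RNA libraries in 4 groups of 6 biological replicates: PolgD257A kidneys after ischemia reperfusion surgery (B-IRI in the labels), Polg+/+ kidneys after B-IRI, PolgD257A kidneys after sham surgery, and Polg+/+ kidneys after sham surgery. Polg encodes the catalytic subunit of the polymerase that copies mitochondrial DNA, and the PolgD257A allele removes its proofreading, so that point mutations gather in mitochondrial DNA. The mice were littermates, and the stated question is how such mutations contribute to injury after ischemia reperfusion. The change is carried by every cell type, the labels do not say whether animals were homozygous for it, and age, sex and the time between surgery and tissue collection were not given in the sources used.

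Mitochondrial genes are read from a compact circle as long transcripts of both strands. The tRNA genes lie between most of the others and are cut out of these transcripts, which frees the rRNAs and mRNAs at the same time. The mRNAs, most of which receive poly(A) tails, encode subunits of complexes I, III, IV and V of the respiratory chain. The rRNAs and tRNAs serve the mitochondrial ribosome that translates the mRNAs. In the kidney the tubule cells that reabsorb salt and solutes are rich in mitochondria, above all those of the proximal tubule, which ischemia readily injures.

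The labelled tissue of each library was kidney, and libraries held between 16689284 and 26341004 reads assigned to genes. Havcr1, the kidney injury molecule of damaged tubules, averaged 31950 normalized counts in B-IRI PolgD257A and 14321 in B-IRI Polg+/+ kidneys, against 171 in sham PolgD257A and 143 in sham Polg+/+ kidneys, so the surgery labels and this injury marker pointed the same way. Polg itself lay between 997 and 1232 normalized counts in all libraries, which checks no genotype label, because the change alters the protein and not the amount of its mRNA. Polg was slightly higher after B-IRI in PolgD257A kidneys (log2 difference 0.12 ± 0.04, B-IRI minus sham, ± standard error, limma adjusted p = 0.012). In Polg+/+ kidneys this difference was 0.02 ± 0.04 (limma adjusted p = 0.68). The 16 proximal tubule markers summed to between 330822 and 536009 normalized counts in B-IRI PolgD257A, between 596419 and 739015 in B-IRI Polg+/+, between 990596 and 1248760 in sham PolgD257A, and between 957635 and 1157740 in sham Polg+/+ libraries, with no marker at 0. In whole kidney RNA, fewer cells of a type and less RNA per cell cannot be told apart.

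The results below turn on 4 tRNA genes, whose sequences are shown because the genotype or the surgery moved each of them and because they differ in strand and place. They are given 5′ to 3′ as DNA from the GENCODE M21 transcripts of GRCm38, with the anticodon in capitals.
mt-Tp: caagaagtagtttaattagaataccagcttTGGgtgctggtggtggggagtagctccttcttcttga
mt-Tl1: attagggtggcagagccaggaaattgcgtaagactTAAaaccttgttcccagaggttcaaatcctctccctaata
mt-Tl2: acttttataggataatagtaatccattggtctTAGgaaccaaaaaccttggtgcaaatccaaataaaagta
mt-Te: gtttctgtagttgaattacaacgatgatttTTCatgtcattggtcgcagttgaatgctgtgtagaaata
The proline tRNA mt-Tp (chrM:15356-15422, minus strand) is the last gene of the map and the first gene met by the transcript of that strand after the control region. The leucine tRNA mt-Tl1 (chrM:2676-2750, plus strand) begins at the base after the large rRNA, mt-Rnr2, and ends at the base before mt-Nd1. The other leucine tRNA, mt-Tl2 (chrM:11671-11741, plus strand), closes a row of 3 tRNA genes in front of mt-Nd5. The glutamate tRNA mt-Te (chrM:14071-14139, minus strand) touches mt-Nd6, the only mRNA gene on that strand. A read counted for a tRNA gene can come from the mature tRNA or from a longer precursor, and counts per gene do not tell these apart. No source used here says whether strand was kept. If it was not, reads counted for minus strand genes such as mt-Tp, mt-Te and mt-Nd6 may come from plus strand transcripts.

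Levels per length differed widely between genes. In sham Polg+/+ kidneys, mt-Co1, a core subunit of complex IV, held 501750 ± 29472 normalized counts per kb, and mt-Cytb, the complex III subunit cytochrome b, held 373402 ± 22903 (SD, n = 6 each). The rRNAs mt-Rnr1 and mt-Rnr2 stood at 31181 ± 1932 and 26967 ± 2095 per kb (SD, n = 6 each), below mt-Nd1, mt-Nd2, mt-Nd4, mt-Nd5 and mt-Nd6 of complex I, which lay between 104351 and 336526. Among the tRNAs mt-Tp stood far from the rest. Its level was 84408 ± 13144 per kb in sham Polg+/+ kidneys (SD, n = 6), and the next tRNA, mt-Te, was at 4318 ± 602 (SD, n = 6). A gene was tested if 6 or more libraries held 10 or more normalized counts of it, and 14 of the 22 tRNA genes were. The 8 that were not were mt-Tf, mt-Tv, mt-Tq, mt-Ta, mt-Ts1, mt-Td, mt-Tk and mt-Tt, with at most 19 reads in any library. One of these, mt-Tt, lies right beside mt-Tp on the other strand and had at most 15 reads. Including all 13 mRNAs and both rRNAs, 29 of the 37 genes were tested.

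**Figure D1:**
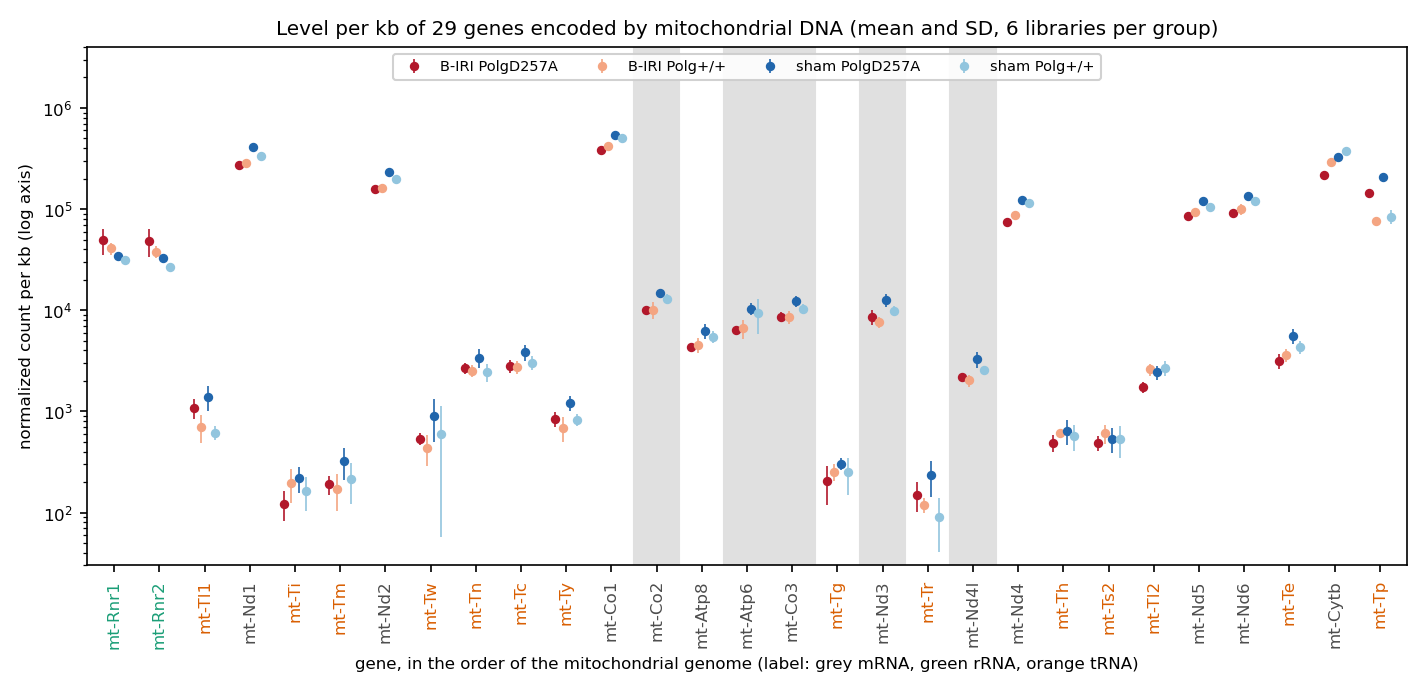
Normalized counts per kb (log axis) of the 29 tested genes in the order of the mitochondrial genome, as mean and SD over 6 libraries for each group; grey bands mark mRNA genes with over 90% of their length in a nuclear copy of at least 99% identity. The banded genes lie between 2576 and 13015 in sham Polg+/+ kidneys, far below mt-Co1 and mt-Cytb, and mt-Tp is the one tRNA at the height of the abundant mRNAs.

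For 5 mRNA genes the nuclear genome holds near-identical copies over nearly the whole gene. The genes mt-Co2, mt-Atp6, mt-Co3, mt-Nd3 and mt-Nd4l each matched an annotated copy on chromosome 1 at 99% identity or more. The start of mt-Nd3 is printed beside that of its copy Gm28438 (positions 1 to 60 of the mRNA, base 3 in capitals) to show how little separates them.
mt-Nd3: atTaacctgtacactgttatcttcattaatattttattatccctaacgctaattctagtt
Gm28438: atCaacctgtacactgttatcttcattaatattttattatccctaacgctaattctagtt
Counted from the first base, T3C is the only difference over 345 shared bases. The 5 copied mRNAs held between 2576 and 13015 normalized counts per kb in sham Polg+/+ kidneys, against 104351 to 501750 for the other mRNAs apart from mt-Atp8, which held 5482 and shares 43 bases with mt-Atp6. Some of the abundant mRNAs have partial or less similar copies: Gm28439 is 100% identical to mt-Nd4 over 876 bases (63.6% of the gene), Gm29216 is 99.8% identical to mt-Co1 over 483 bases, and Gm13340 is 97.6% identical to the whole of mt-Co1. Levels of all these genes are therefore uncertain, and no source used here says how reads that match both places were counted. Reads were assigned to the copies too: Gm28661, the chromosome 1 copy of mt-Co2, averaged 8241 normalized counts in B-IRI PolgD257A, 7884 in B-IRI Polg+/+, 12271 in sham PolgD257A and 10073 in sham Polg+/+ kidneys. It is 100% identical to mt-Co2 over 681 bases, so its counts do not show that the copy is transcribed. These copies moved with surgery much as the mitochondrial genes did, for example Gm28661 at a log2 difference of -0.57 ± 0.10 in PolgD257A and -0.37 ± 0.10 in Polg+/+ kidneys (B-IRI minus sham, ± standard error, limma adjusted p = 2.0e-05 and 0.0046). By genotype after B-IRI, Gm28661 was at 0.08 ± 0.10 (PolgD257A minus Polg+/+, limma adjusted p = 0.60). Gm13341, a chromosome 2 copy 95.9% identical to the whole of mt-Co2, was lower in PolgD257A kidneys (-0.33 ± 0.10, limma adjusted p = 0.018). No rRNA gene had such a copy among the transcripts searched. The tRNA genes, at 59 to 75 bases, are shorter than the 100 aligned bases required, so the search could not find copies of them.

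Reads from the 37 genes together made up 8.56% of assigned reads in B-IRI PolgD257A, 9.01% in B-IRI Polg+/+, 10.6% in sham PolgD257A and 10.02% in sham Polg+/+ kidneys (means, n = 6 each). The make-up of these reads shifted with surgery. The 2 rRNAs took 7.11% ± 1.95 of mitochondrial reads in B-IRI PolgD257A and 5.23% ± 0.84 in B-IRI Polg+/+ kidneys, against 3.47% ± 0.26 in sham PolgD257A and 3.23% ± 0.30 in sham Polg+/+ kidneys (SD, n = 6 each). No B-IRI library lay as low as any sham library in this share. The tRNAs divided the other way, by genotype. They took 0.613% in B-IRI PolgD257A and 0.628% in sham PolgD257A kidneys, against 0.327% in B-IRI Polg+/+ and 0.301% in sham Polg+/+ kidneys. Nearly all of that was mt-Tp, which alone took 0.555%, 0.567%, 0.271% and 0.251% in the same order of groups. The remaining 21 tRNAs together took between 0.0449% and 0.0678% in every library. The share of mt-Cytb divided by genotype as well, at 14.3% ± 0.2 in B-IRI PolgD257A against 17.4% ± 1.3 in B-IRI Polg+/+ kidneys, and 15.4% ± 0.4 in sham PolgD257A against 19.0% ± 0.3 in sham Polg+/+ kidneys (SD, n = 6 each). Within each surgery the PolgD257A libraries all lay below the Polg+/+ ones in the mt-Cytb share. The share of mt-Co1, by contrast, was between 34.5% and 34.6% in each group mean.

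**Figure D2:**
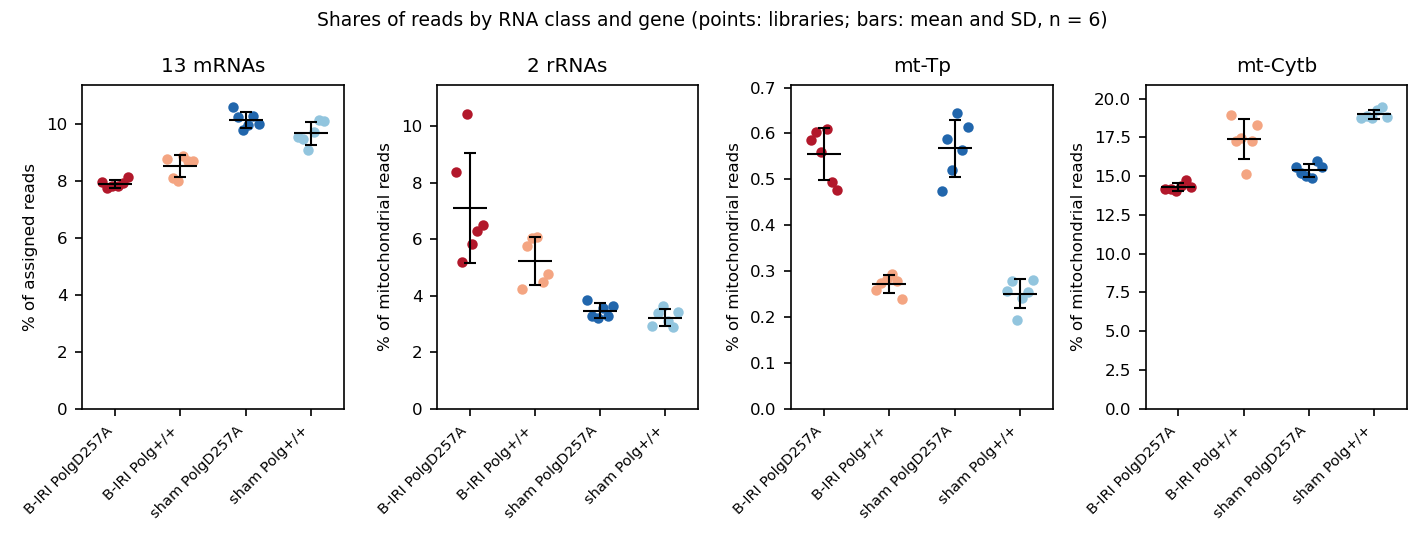
Shares of reads per library for the 13 mRNAs (percent of assigned reads) and for the 2 rRNAs, mt-Tp and mt-Cytb (percent of mitochondrial reads), with mean and SD over 6 libraries in each group. The rRNA share is high in the B-IRI groups, the mt-Tp share averages 0.555% and 0.567% in the PolgD257A groups, against 0.271% and 0.251% in the Polg+/+ groups, and the mt-Cytb share is lower in PolgD257A kidneys.

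The first comparison asks what the PolgD257A allele did to these transcripts without injury. In sham kidneys mt-Tp and mt-Tl1 were higher in PolgD257A, 0 members were lower, and no mRNA or rRNA passed the threshold (limma-trend, Benjamini-Hochberg adjusted p under 0.05 over 17430 genes). At an unadjusted p under 0.05, limma had 17 of 29 members higher and 0 lower, where 3.92% of all genes were higher and 3.43% lower, and on the recovered reads edgeR called 3 higher and DESeq2 called 5 higher, both with 0 lower. Over all tested genes 0.0861% were called higher and 0.0402% lower, and 2 of the 22 genes called in this comparison were mitochondrial tRNAs. The lowest, median and highest normalized counts of mt-Tp were 11856, 14001 and 15450 in sham PolgD257A, against 3980, 5887 and 6358 in sham Polg+/+ kidneys. All PolgD257A libraries thus lay well above all Polg+/+ libraries. The log2 difference was 1.30 ± 0.09 (± standard error, a 2.46-fold difference, adjusted p = 1.4e-09), the second smallest p of the 17430 genes. For mt-Tl1 the lowest, median and highest normalized counts were 85.8, 89.5 and 159 in sham PolgD257A, against 38.6, 46.0 and 56.3 in sham Polg+/+ kidneys. The groups did not overlap here either. The log2 difference of mt-Tl1 was 1.13 ± 0.18 (2.18-fold, adjusted p = 0.0023).

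Most other members leaned the same way in sham kidneys without reaching the threshold. Of the 29 tested, 27 had a positive PolgD257A minus Polg+/+ difference, with a median log2 of 0.28 against 0.01 for all genes. The mRNAs had a median of 0.20. The complex I subunit mt-Nd1 had lowest, median and highest values of 370624, 386461 and 417928 in sham PolgD257A, against 303144, 323882 and 339065 in sham Polg+/+ kidneys. These groups did not overlap, yet the difference of 0.28 ± 0.10 had a limma adjusted p of 0.44. This gene depended on the test: it was past the threshold with edgeR (adjusted p = 0.03) and DESeq2 (adjusted p = 8.1e-08) on the recovered reads. The groups also did not overlap for mt-Nd4l, mt-Nd6, mt-Rnr2 and the tyrosine tRNA mt-Ty, whose log2 differences were 0.33, 0.18, 0.28 and 0.55 with limma adjusted p of 0.18, 0.55, 0.67 and 0.26 (DESeq2 0.049 for mt-Nd4l). With mt-Tp and mt-Tl1 these made 7 of 29 members with every PolgD257A library above every Polg+/+ library, against 0.379% of all tested genes. The 2 members with a negative difference were mt-Cytb (-0.19 ± 0.11, adjusted p = 0.76) and mt-Tl2 (-0.13 ± 0.12, adjusted p = 0.87). Normalized counts of mt-Cytb spanned 356239 to 389511 in sham PolgD257A and 386508 to 464708 in sham Polg+/+ kidneys, so the groups overlapped slightly. The arginine tRNA mt-Tr had the largest difference of all members, 1.47 ± 0.40, but rested on 8.65 to 24.4 normalized counts in sham PolgD257A and 0 to 9.01 in sham Polg+/+ kidneys, and its adjusted p was 0.22. Of the 16 proximal tubule markers 0 passed the threshold in this comparison, at a median log2 of 0.06 (limma; 1 was higher at an unadjusted p under 0.05, and 0 with edgeR or DESeq2).

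**Figure D3:**
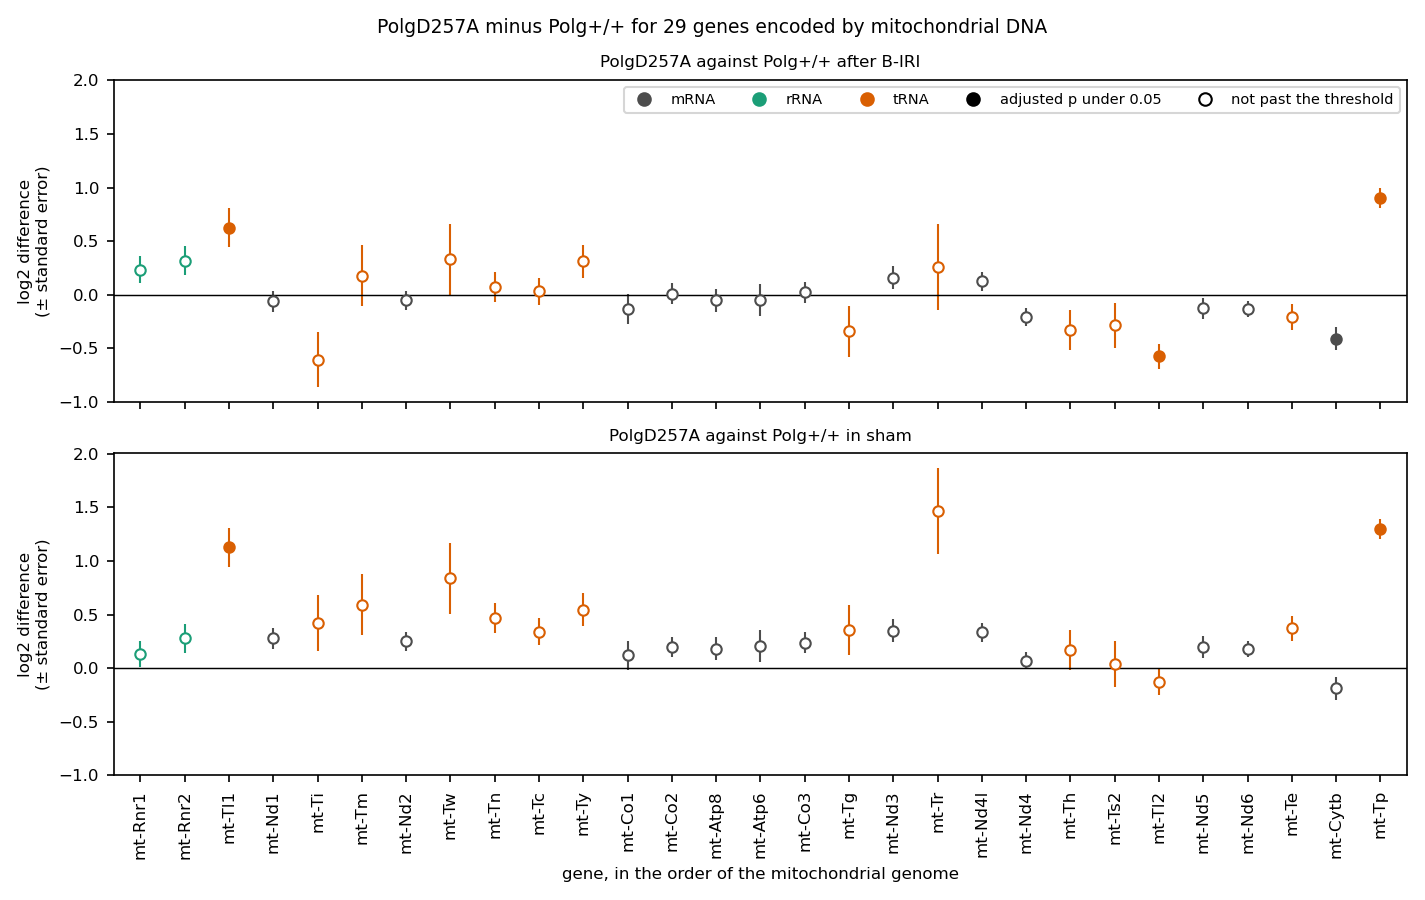
Log2 differences (PolgD257A minus Polg+/+, ± standard error) of the 29 tested genes in the order of the mitochondrial genome, after B-IRI (top) and in sham kidneys (bottom); filled points passed the adjusted p threshold. The filled tRNAs mt-Tp and mt-Tl1 are above 0 in both panels, and mt-Tl2 and mt-Cytb are filled below 0 after B-IRI.

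After B-IRI the same comparison gave 2 members higher and 2 lower in PolgD257A kidneys, where 14.3% of all tested genes were called higher and 15.2% lower, so the share of members called was no larger than that of all genes. The 2 tRNAs higher in sham PolgD257A kidneys were higher here as well. The lowest, median and highest normalized counts of mt-Tp were 8365, 10089 and 10354 in B-IRI PolgD257A, against 4586, 5095 and 5754 in B-IRI Polg+/+ kidneys. Again the groups lay apart, with a log2 difference of 0.90 ± 0.09 (1.86-fold, adjusted p = 3.7e-07). The values of mt-Tl1 were 62.1, 77.7 and 107 in B-IRI PolgD257A, against 36.7, 50.3 and 84.2 in B-IRI Polg+/+ kidneys. These groups overlapped through 1 high Polg+/+ library, and the log2 difference was 0.63 ± 0.18 (adjusted p = 0.01). 

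The members that were lower in PolgD257A kidneys after B-IRI were the second leucine tRNA and cytochrome b. Values of mt-Tl2 were 102, 124 and 145 in B-IRI PolgD257A (lowest, median, highest), against 156, 183 and 223 in B-IRI Polg+/+ kidneys. There was no overlap, and the log2 difference was -0.58 ± 0.12 (adjusted p = 5.6e-04). Those of mt-Cytb were 239134, 247807 and 254178 in B-IRI PolgD257A, against 297165, 324405 and 380575 in B-IRI Polg+/+ kidneys. Again no library of one group reached the other, at a log2 difference of -0.41 ± 0.11 (adjusted p = 0.0045). Relative to the sum of the 13 mRNAs, mt-Cytb was lower in PolgD257A kidneys by a log2 of -0.25 after B-IRI (limma adjusted p = 0.025) and -0.30 in sham kidneys (adjusted p = 0.1). The groups also lay apart for mt-Nd4, with 96302 to 105854 in B-IRI PolgD257A and 109733 to 132526 in B-IRI Polg+/+ kidneys, but the difference missed the threshold (-0.21 ± 0.08, limma adjusted p = 0.056; edgeR 0.0088, DESeq2 9.4e-04). The rRNAs were at 0.23 ± 0.12 for mt-Rnr1 (limma adjusted p = 0.16) and 0.32 ± 0.14 for mt-Rnr2 (limma adjusted p = 0.077; edgeR 0.044, DESeq2 0.027). Proximal tubule markers moved with this comparison: 14 of 16 were lower in B-IRI PolgD257A kidneys (median log2 -0.65). So were 5 of 5 markers of the thick ascending limb, another tubule segment (median log2 -0.53). The part of either list in the mitochondrial differences was not tested.

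In the authors' deposited table, which covers 1401 genes and runs as PolgD257A against Polg+/+ after B-IRI, 2 mitochondrial genes appear. The log2 fold change in the authors' deposited table was 0.88 (standard error 0.095, s-value 2.7e-21) for mt-Tp and -0.54 (standard error 0.127, s-value 1.4e-06) for mt-Tl2.

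The comparison of B-IRI with sham surgery asks what injury did in each genotype. In Polg+/+ kidneys the rRNAs rose and most mRNAs fell: 2 of 2 rRNAs were higher, 11 of 13 mRNAs were lower and 0 of 14 tested tRNAs passed the threshold (limma). For the tRNAs the count was 0 with edgeR and with DESeq2 as well, and 1 was lower at an unadjusted p under 0.05. Over all genes 21.4% were called higher and 19.8% lower. The lowest, median and highest normalized counts of mt-Rnr1, the small subunit rRNA, were 33285, 38835 and 46595 in B-IRI Polg+/+, against 27641, 29924 and 31926 in sham Polg+/+ kidneys. For mt-Rnr2, the large subunit rRNA, they were 51445, 58085 and 72651 in B-IRI Polg+/+, against 37550, 42789 and 46193 in sham Polg+/+ kidneys. Every B-IRI library lay above every sham library for both rRNAs. The log2 differences were 0.38 ± 0.12 for mt-Rnr1 (adjusted p = 0.015) and 0.48 ± 0.14 for mt-Rnr2 (adjusted p = 0.006).

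The mRNAs ran the other way in Polg+/+ kidneys, at a median log2 of -0.28. The complex I subunit mt-Nd4 had lowest, median and highest values of 109733, 120145 and 132526 in B-IRI Polg+/+, against 141197, 164725 and 167108 in sham Polg+/+ kidneys. The groups lay apart, and mt-Nd4 had the smallest adjusted p of the members, at -0.41 ± 0.08 (2.3e-04). For mt-Cytb the values were 297165, 324405 and 380575 in B-IRI Polg+/+, against 386508, 425994 and 464708 in sham Polg+/+ kidneys, again without overlap (-0.37 ± 0.11, adjusted p = 0.0066). The minus strand mRNA mt-Nd6 had 45094, 51163 and 62568 in B-IRI Polg+/+, against 55919, 62425 and 64496 in sham Polg+/+ kidneys, with 1 B-IRI library inside the sham range (-0.26 ± 0.07, adjusted p = 0.0075). The complex IV subunit mt-Co1 had 602972, 653439 and 742332 in B-IRI Polg+/+, against 698447, 779895 and 834601 in sham Polg+/+ kidneys. These groups overlapped, and mt-Co1 did not pass the threshold with limma (-0.24 ± 0.14, adjusted p = 0.17) but did with edgeR (0.0037), DESeq2 (1.2e-06) and robust moderation in limma (0.0041). The complex I subunit mt-Nd5 was past it with none of these (-0.15 ± 0.10, limma adjusted p = 0.24). The ATP synthase subunits mt-Atp6 and mt-Atp8 were at -0.46 ± 0.15 and -0.27 ± 0.11 (adjusted p = 0.016 and 0.041), and the copied mt-Co2, mt-Co3, mt-Nd3 and mt-Nd4l lay between -0.37 and -0.28. Without sham Polg+/+ replicate 4, mt-Atp6 was at -0.28 (limma adjusted p = 0.043). The limma calls of mt-Nd1, mt-Atp8 and mt-Co3 ended when any 1 of 18, 8 and 3 of the 24 libraries was left out. Under quantile normalization mt-Nd1 and mt-Cytb had a positive sign in Polg+/+ kidneys, at 0.03 and 0.08, and mt-Nd2 and mt-Nd6 were at -0.06 and -0.03, with 0 of these 4 past the threshold. By construction that method leaves a gene that keeps its rank in every library unchanged. The tRNAs had no common direction here: 7 were above and 7 below 0, and mt-Tp was at -0.12 ± 0.09 (adjusted p = 0.31). Proximal tubule markers fell in the same libraries, 14 of 16 with a median log2 of -0.72, and their part in the fall of the mRNAs was not tested.

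In PolgD257A kidneys the mRNAs and most tested tRNAs were lower after B-IRI. Here 2 of 2 rRNAs rose, 13 of 13 mRNAs fell and 9 of 14 tested tRNAs fell, where 30.2% of all genes were called higher and 30.3% lower. The lowest, median and highest normalized counts of mt-Rnr1 were 36699, 40133 and 70499 in B-IRI PolgD257A, against 27688, 32573 and 37710 in sham PolgD257A kidneys (0.48 ± 0.12, adjusted p = 0.0014). Those of mt-Rnr2 were 51408, 71158 and 116267 in B-IRI PolgD257A, against 47224, 50503 and 62369 in sham PolgD257A kidneys (0.52 ± 0.14, adjusted p = 0.0018). Both rRNAs overlapped between the surgeries, and the B-IRI group had the widest spread of any group. The median difference of the mRNAs was -0.56. For mt-Nd4 the values were 96302, 104687 and 105854 in B-IRI PolgD257A, against 156291, 166157 and 188115 in sham PolgD257A kidneys (-0.69 ± 0.08, adjusted p = 5.2e-08). For mt-Nd6 they were 43421, 47842 and 48590 in B-IRI PolgD257A, against 64931, 68947 and 77228 in sham PolgD257A kidneys (-0.58 ± 0.07, adjusted p = 2.4e-07). The surgeries did not overlap for either of these, nor for 9 other mRNAs; over all tested genes, 17.5% had every B-IRI library below every sham library. The highest abundance mRNA, mt-Co1, had 574627, 601875 and 608901 in B-IRI PolgD257A, against 808193, 843079 and 864592 in sham PolgD257A kidneys (-0.49 ± 0.14, adjusted p = 0.0032). Under quantile normalization the calls of 4 mRNAs ended: mt-Nd1 was at 0.07, mt-Co1 at 0.00, mt-Nd6 at -0.09 and mt-Cytb at -0.03, against -0.59, -0.49, -0.58 and -0.60 as reported. That method gives each rank the same value in every library, so a gene that keeps its place at the top cannot change. Of these 4 mRNAs only mt-Co1 came out at 0.00, and which of them kept their rank was not tested.

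The tRNA with the smallest adjusted p in PolgD257A kidneys was mt-Te, with 178, 217 and 269 normalized counts in B-IRI PolgD257A (lowest, median, highest), against 316, 379 and 473 in sham PolgD257A kidneys. The groups lay apart, and mt-Te fell, with a log2 difference of -0.83 ± 0.12 (adjusted p = 1.3e-06). For mt-Tp, with 8365, 10089 and 10354 in B-IRI PolgD257A against 11856, 14001 and 15450 in sham PolgD257A kidneys, the groups lay apart as well (-0.52 ± 0.09, adjusted p = 2.5e-05). The values of mt-Tl2 were 102, 124 and 145 in B-IRI PolgD257A, against 138, 176 and 217 in sham PolgD257A kidneys, with a slight overlap (-0.48 ± 0.12, adjusted p = 0.001). The tRNAs for cysteine, tyrosine and asparagine, mt-Tc, mt-Ty and mt-Tn, which lie in a row on the minus strand before mt-Co1, fell, with log2 differences of -0.44, -0.52 and -0.33 (adjusted p = 0.0034, 0.0056 and 0.041). The rarer mt-Ti, mt-Tm and mt-Tg, for isoleucine, methionine and glycine, fell, with -0.78, -0.68 and -0.61 (adjusted p = 0.011, 0.04 and 0.029), at group means of at most 22.3 normalized counts. The calls of mt-Tn, mt-Tm and mt-Tg ended when any 1 of 7, 6 and 6 of the 24 libraries was left out and with no filter on low values, and that of mt-Tm also under the replicate block (limma adjusted p = 0.064). Scaled to nuclear reads, 17 members were lower in PolgD257A kidneys, against 22 as reported. The calls of mt-Tn, mt-Tm and mt-Tc were among those that ended (limma adjusted p = 0.30, 0.096 and 0.065). With limma, mt-Tl1 (-0.34 ± 0.18, adjusted p = 0.1), mt-Tw, mt-Tr, mt-Th and mt-Ts2 were not past the threshold; mt-Tw was with DESeq2 (adjusted p = 0.048) and in a limma fit of only the 12 libraries compared (0.015). When each library was scaled to the sum of its 13 mitochondrial mRNAs, mt-Tp was at 0.03 and mt-Te at -0.28 (limma adjusted p = 0.8 and 0.023), while mt-Rnr1 and mt-Rnr2 were at 1.03 and 1.07 (adjusted p = 3.9e-08 and 9.1e-08). All 16 proximal tubule markers fell in the same comparison, at a median log2 of -1.33, and their part in the fall of the mRNAs and tRNAs was not tested.

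**Figure D4:**
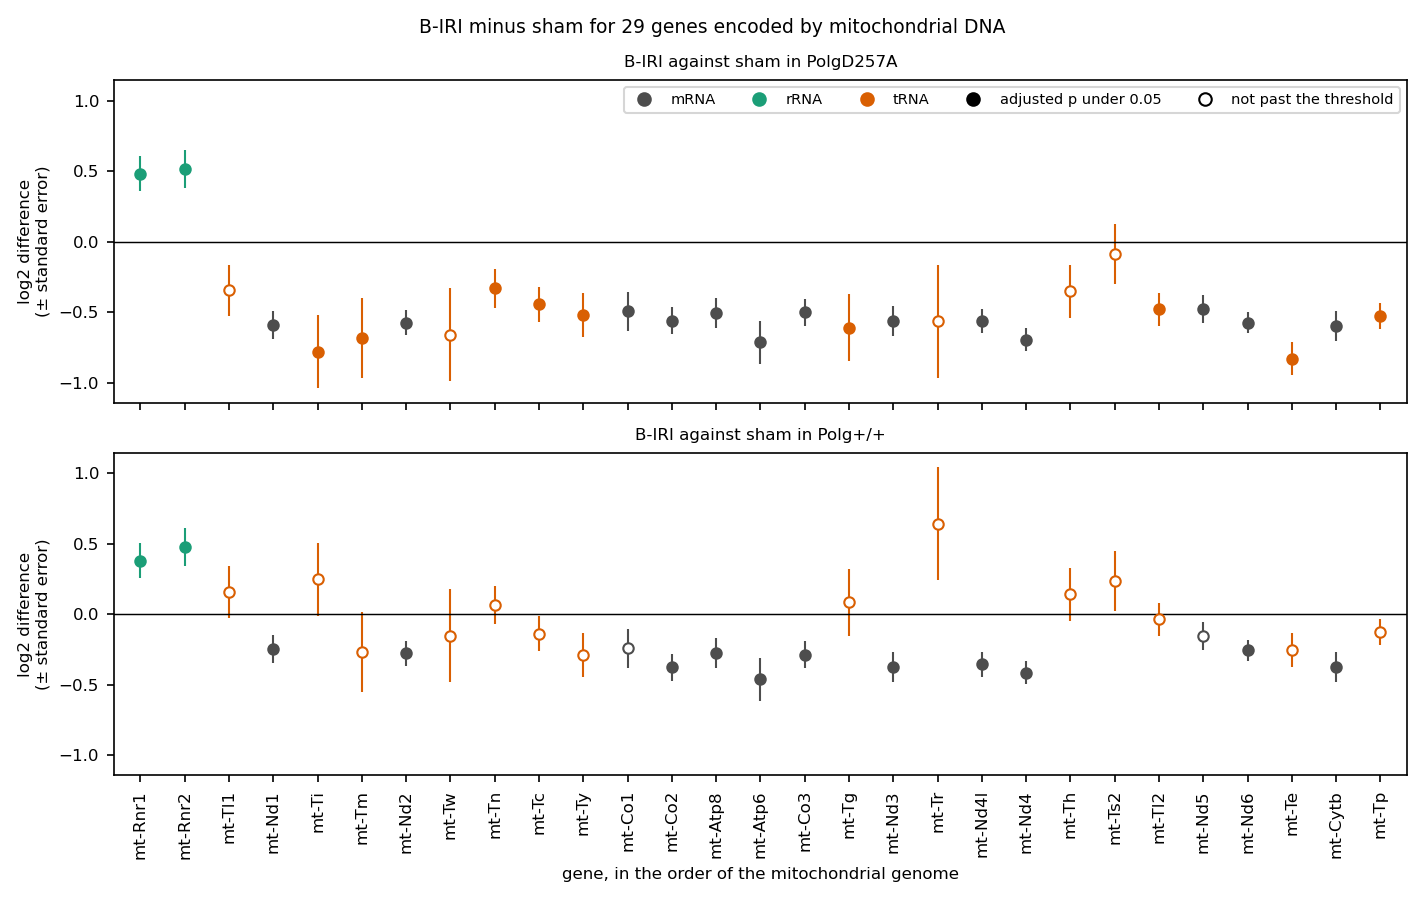
Log2 differences (B-IRI minus sham, ± standard error) of the 29 tested genes in the order of the mitochondrial genome, in PolgD257A (top) and Polg+/+ kidneys (bottom); filled points passed the adjusted p threshold. The 2 rRNAs are filled above 0 in both panels; below 0, 13 mRNAs and 9 tRNAs are filled in PolgD257A and 11 mRNAs in Polg+/+ kidneys.

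Whether injury acted differently by genotype was tested as an interaction. The interaction was past the threshold for 3 members, mt-Nd6, mt-Te and mt-Tp, each with a more negative B-IRI minus sham difference in PolgD257A than in Polg+/+ kidneys, and for 0 in the other direction (limma; 0 at an unadjusted p under 0.05, with edgeR and with DESeq2 too), where 6.87% of all genes were called higher and 9.08% lower. With limma, the share of members called was thus about that of all genes. The B-IRI minus sham difference of mt-Te was -0.83 in PolgD257A and -0.25 in Polg+/+ kidneys, an interaction of -0.58 ± 0.17 (adjusted p = 0.021). For mt-Tp it was -0.52 in PolgD257A and -0.12 in Polg+/+ kidneys (-0.40 ± 0.13, adjusted p = 0.039), and for mt-Nd6 -0.58 and -0.26 (-0.32 ± 0.11, adjusted p = 0.039). With edgeR 8 members and with DESeq2 9 were past it, all negative; mt-Nd1, mt-Nd2, mt-Nd4, mt-Nd5 and mt-Co1 were added by both and mt-Cytb by DESeq2. As reported, all 13 mRNAs had a negative interaction, between -0.34 and -0.19. Over the alternatives other than scaling to their own sum, it ran between -0.43 (mt-Atp6) and -0.05 (mt-Co2). The exceptions were mt-Nd1 and mt-Co1 under quantile normalization (0.04 and 0.00). Scaled to their own sum, some turned positive, by construction. The 2 rRNAs had interactions of 0.10 ± 0.17 and 0.04 ± 0.19 (adjusted p = 0.75 and 0.92), so their rise was not shown to differ by genotype. The other 24 tested members were between -1.21 and -0.19 and missed the threshold with limma. Calls of mt-Nd6 and mt-Tp were the less stable ones: mt-Te alone stayed past the threshold without sham Polg+/+ replicate 3 or 4, sham PolgD257A replicate 5 or 6, or B-IRI Polg+/+ replicate 1 or 5. Of the 16 proximal tubule markers 12 had a negative interaction past the threshold, at a median of -0.65. All 5 of 5 thick ascending limb markers did as well, at a median of -0.61. The part of either list in these differences was not tested.

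**Figure D5:**
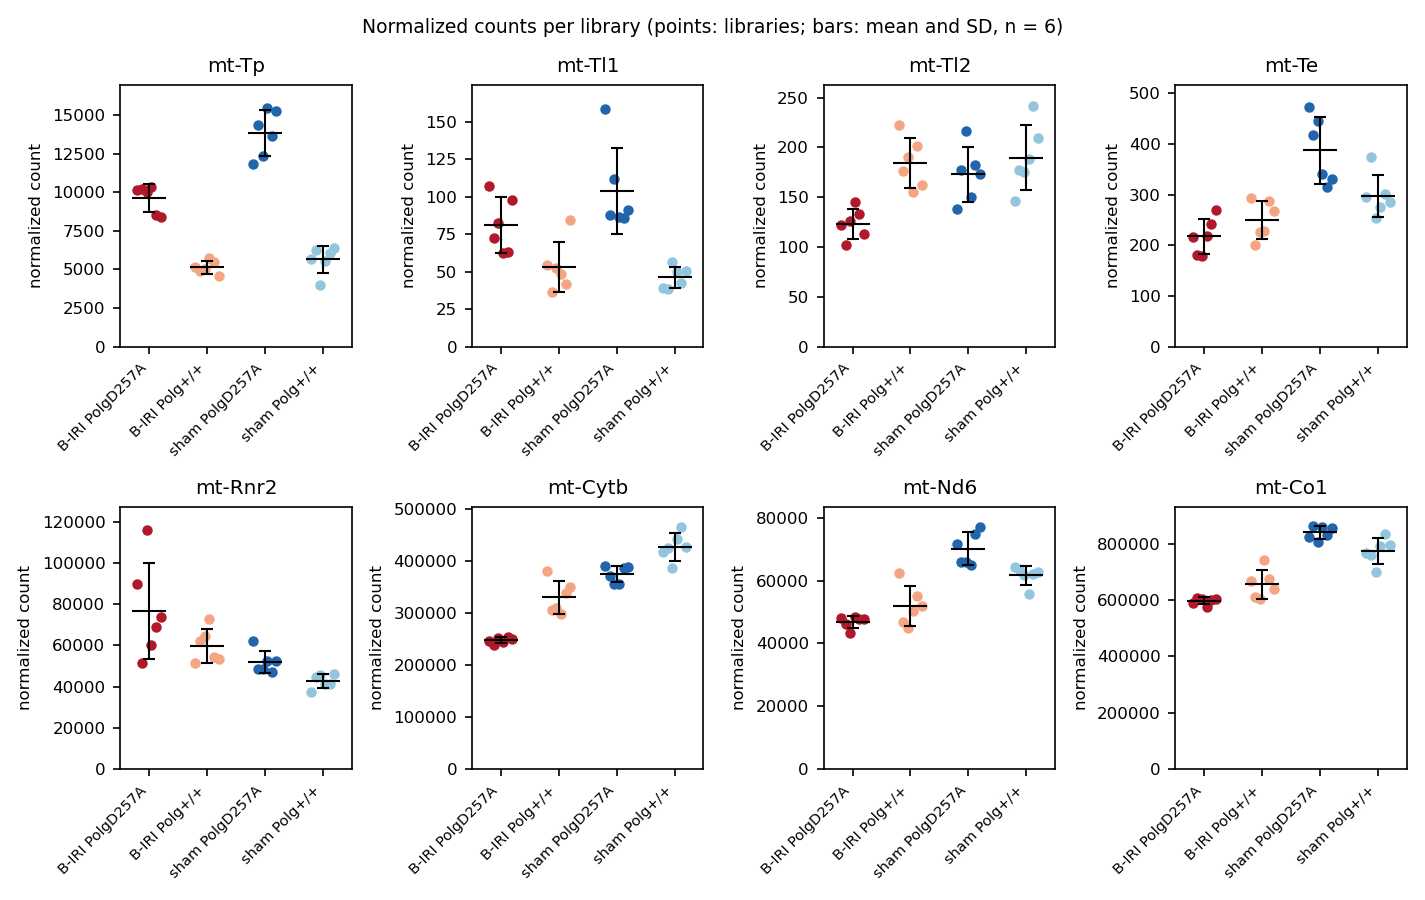
Normalized counts of 8 members in each library, with mean and SD over 6 libraries in each group. For mt-Tp the PolgD257A groups average 9601 after B-IRI and 13829 in sham, against 5144 and 5655 in Polg+/+ kidneys; mt-Cytb averages 247291 and 374743 in the PolgD257A groups, against 330405 and 427172 in Polg+/+ kidneys.

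Nuclear genes that make and process these transcripts were followed as 3 lists. The 9 genes of mitochondrial transcription include the RNA polymerase Polrmt and the packaging and initiation factor Tfam. None of the 9 was past the threshold by genotype in sham kidneys, where the smallest adjusted p was 0.77 (limma; 0 at an unadjusted p under 0.05, with edgeR and with DESeq2 too). After B-IRI 3 of 9 fell in Polg+/+ kidneys, where 19.8% of all genes were lower, and 5 of 9 in PolgD257A kidneys, where 30.3% were, and 0 rose in either. Tfam was at -0.41 ± 0.05 in PolgD257A (adjusted p = 2.1e-07) and -0.17 ± 0.05 in Polg+/+ kidneys (adjusted p = 0.013), and its interaction of -0.24 ± 0.07 passed the threshold (adjusted p = 0.028). The median of the list was -0.13 in PolgD257A and -0.16 in Polg+/+ kidneys, against 0.00 and -0.01 for all genes. Between genotypes after B-IRI, Tfam, Mterf2 and Mterf3 were lower in PolgD257A kidneys.

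Among 20 genes of RNA processing, polyadenylation, stability and decay, 7 rose and 4 fell after B-IRI in PolgD257A kidneys (30.2% and 30.3% of all genes), and 8 rose and 2 fell in Polg+/+ kidneys (21.4% and 19.8% of all genes). Rexo2, an exonuclease that degrades short RNAs in mitochondria, was at 0.63 ± 0.06 in PolgD257A (adjusted p = 2.1e-10) and 0.51 ± 0.06 in Polg+/+ kidneys (adjusted p = 4.9e-08). Grsf1, a component of mitochondrial RNA granules, was at -0.56 ± 0.05 in PolgD257A (adjusted p = 5.8e-10) and -0.23 ± 0.05 in Polg+/+ kidneys (adjusted p = 8.1e-04), and its interaction was past the threshold (-0.33 ± 0.07, adjusted p = 0.0031). Elac2, which cuts the 3′ ends of tRNAs, was at 0.30 ± 0.06 in PolgD257A and 0.25 ± 0.06 in Polg+/+ kidneys (adjusted p = 9.1e-05 and 0.0013). In sham kidneys 0 of the 20 differed by genotype past the threshold, and 0 did at an unadjusted p under 0.05, with edgeR or with DESeq2. After B-IRI 3 of 20 were lower in PolgD257A kidneys, about the share of all genes (15.2%), namely Grsf1 (-0.30, adjusted p = 9.7e-05), Hsd17b10 (-0.19, adjusted p = 0.02) and Fastk (-0.12, adjusted p = 0.031).

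Of the 23 genes of rRNA and tRNA modification, 8 rose and 7 fell after B-IRI in PolgD257A kidneys, near the shares of all genes (30.2% and 30.3%), and 5 rose and 1 fell in Polg+/+ kidneys (21.4% and 19.8% of all genes). Nsun2, a methyltransferase that acts on tRNAs, was at 0.65 ± 0.05 in PolgD257A (adjusted p = 1.1e-10) and 0.40 ± 0.05 in Polg+/+ kidneys (adjusted p = 1.8e-06). Osgepl1, needed for a modified base next to the anticodon of some mitochondrial tRNAs, was at -0.61 ± 0.05 in PolgD257A (adjusted p = 1.6e-10) and -0.22 ± 0.05 in Polg+/+ kidneys (adjusted p = 0.0014). Their interactions passed the threshold in opposite directions, at 0.25 (adjusted p = 0.03) for Nsun2 and -0.39 (adjusted p = 0.001) for Osgepl1. No gene of this list was past the threshold by genotype in sham kidneys (limma, smallest adjusted p 0.76; 0 at an unadjusted p under 0.05, with edgeR and with DESeq2 too).

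Nuclear-encoded RNAs without poly(A) tails were set beside the mitochondrial rRNAs and tRNAs, since no source used here says whether or how polyadenylated RNA was enriched. Small nuclear and nucleolar RNAs took 0.00177% of reads in B-IRI PolgD257A and 0.0014% in B-IRI Polg+/+, against 0.00131% in sham PolgD257A and 0.00119% in sham Polg+/+ kidneys. They were highest in the group with the highest rRNA share. Histone genes, whose mRNAs mostly lack poly(A) tails, took 0.023% in B-IRI PolgD257A and 0.0273% in B-IRI Polg+/+, against 0.0356% in sham PolgD257A and 0.0336% in sham Polg+/+ kidneys. These ran against the rRNAs. What part RNA selection had in the rRNA differences was not tested.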

How the data were processed

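Kidney RNA (24 libraries) was isolated with RNeasy kits and prepared with NEBNext Ultra II reagents, per the labels' protocols. The submitters' processing notes name FastQC, STAR, SAMtools, featureCounts and DESeq2 with the build GRCm38.p6 but no versions, and no source used here says whether strand was kept. The deposited signal values are counts per gene that the authors divided by 1 size factor per library. Multiplied by that factor (0.740 to 1.31), 100% of values came out as whole reads within 0.001, and the recovered reads fed edgeR and DESeq2. The deposited table of the authors' own comparison gives a shrunken log2 fold change, its standard error and an s-value, a p-value-like chance of a wrong sign, as made by the authors. Columns named Ctrl, Mut and SurgBIR were read as Polg+/+, PolgD257A and B-IRI; this is inferred from the names, and every comparison rests on it.

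Differences were tested with limma-trend (limma 3.58.1 under R 4.3.3) after adding 1 to each normalized count and taking log2. All 24 libraries entered a single fit with 4 group means, for the 17430 genes that reached 10 normalized counts in at least 6 of them. It gave the effect of B-IRI within either genotype, that of PolgD257A within either surgery, and their interaction; p-values were adjusted by Benjamini-Hochberg and called at 0.05. The pseudocount understates differences of the rarest tRNAs. The scripts recovered the larger of the known changes put into simulated data, and none as small as many reported here was simulated. Alternatives were other pseudocounts, filters and scalings, edgeR 4.0.16 (quasi-likelihood), DESeq2 1.42.0, a replicate block and leaving out each library. Of 55416 gene IDs, 52083 matched the symbol table. Coordinates and sequences are those of GENCODE M21 on GRCm38, whose annotation differs in version from that behind the counts. Nuclear copies were sought by aligning the mitochondrial transcripts to the GENCODE M21 transcripts (at least 95% identity over at least 100 bases), which the shorter tRNA genes could not reach. The genome itself was not used, so copies without an annotated transcript are not covered. Named genes are mt-Tp, mt-Tl1, mt-Co1, the rRNAs and mt-Nd6, in each comparison the 5 members with the smallest adjusted p and any called against their class, and of the nuclear lists up to 4 genes; others named were chosen after their values were seen. The members and lists were chosen with earlier results of these data known. The libraries are labelled biological replicates, and read counts carry no molecular identifiers.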

Additional observations from a re-analysis of the deposited data

Results flagged for a closer look

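Of 116 sets of 6 normalized counts looked at (29 genes in 4 groups), 12 held a library that stood apart from the other 5 by Dixon's criterion at the 95% level, which chance alone gives for about 1 set in 20. Sham PolgD257A replicate 1 stood highest for 3 genes, with 62369 for mt-Rnr2 (next 52518), 159 for mt-Tl1 (next 112) and 1338 for mt-Nd4l (next 941). Both mt-Tl1 calls by genotype were kept without any 1 library. The high value of mt-Tl1 in B-IRI Polg+/+ replicate 6 was 84.2 (next 54.4). For mt-Atp6 a pair of values stood high, 6417 in B-IRI Polg+/+ replicate 1 (next 4563) and 11253 in sham Polg+/+ replicate 4 (next 6167). Among rare tRNAs, mt-Tw was at 111 in sham Polg+/+ replicate 6 (next 46.1), mt-Tg at 25.0 in B-IRI PolgD257A replicate 3 (next 14.4), and mt-Th low at 33.0 in B-IRI Polg+/+ replicate 2 (next 41.7). Low values were also 96302 for mt-Nd4 in B-IRI PolgD257A replicate 2 (next 103516), 55919 for mt-Nd6 in sham Polg+/+ replicate 4 (next 61766) and 3980 for mt-Tp in sham Polg+/+ replicate 3 (next 5544).

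The effect of surgery differed between genotypes, by the test of the difference itself, for mt-Te (interaction log2 -0.58), mt-Tp (-0.40) and mt-Nd6 (-0.32). Their limma adjusted p were 0.021, 0.039 and 0.039. These were 3 of 29 tested members, where 9.08% of all genes were called lower. Without sham Polg+/+ replicate 3, the library with the low mt-Tp value, the mt-Tp interaction was -0.30 (limma adjusted p = 0.054). Without sham Polg+/+ replicate 4, the library with the low mt-Nd6 value, the mt-Nd6 interaction was -0.29 (limma adjusted p = 0.068).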

How the results depend on the processing

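The genotype calls of mt-Tp and mt-Tl1 in both surgeries, of mt-Tl2 and mt-Cytb after B-IRI, and the surgery calls of both rRNAs in both genotypes kept their direction and stayed past the threshold under all 37 alternatives run. Scaling to the 13 mitochondrial mRNAs put the median of all genes at 0.26 (B-IRI against sham in Polg+/+), 0.54 (in PolgD257A), -0.10 (genotype in sham), 0.17 (genotype after B-IRI) and 0.27 (interaction), where it was between -0.01 and 0.01 as reported, and left 5, 3, 2, 9 and 0 members past the threshold, against 13, 24, 2, 4 and 3 as reported. By construction it takes out a change shared by the mRNAs, and of the members called as reported it reversed mt-Nd1 (0.0282), mt-Nd2 (0.000424), mt-Atp8 (0.00224) and mt-Nd6 (0.0197) in Polg+/+, and mt-Tn (0.218), mt-Tc (0.104), mt-Ty (0.0218), mt-Co1 (0.0564), mt-Atp8 (0.0425), mt-Co3 (0.0506), mt-Tl2 (0.0676), mt-Nd5 (0.0717) and mt-Tp (0.0252) in PolgD257A kidneys. Quantile normalization reversed mt-Nd1 (0.0312) and mt-Cytb (0.084) in Polg+/+ and mt-Nd1 (0.0724) in PolgD257A kidneys, and gave 8 members for the injured genotype comparison and 1 interaction. It gives each rank the same value in every library, so by construction a gene that keeps its place at the top cannot change. Which genes kept their rank, and what lay behind these shifts, was not tested. Scaling to nuclear reads put the median of all genes at 0.15 in PolgD257A kidneys after B-IRI, where 7485 genes were then higher and 3621 lower, against 5260 and 5274 as reported (12143 and 1443 when scaled to the mRNAs), and left 1 interaction, as did no filter on low values. Robust moderation gave 7 interactions, edgeR 8 and DESeq2 9; DESeq2 also called 5 members by genotype in sham kidneys and 7 after B-IRI. Leaving out each library gave 10 to 14, 22 to 25, 2 to 2, 4 to 6 and 1 to 4 members in the same order of comparisons. The replicate block gave 12, 23, 2, 4 and 3 members; replicate numbers did not pair the libraries, since 2 of 24 same-numbered pairs correlated above 0.1 (range -0.33 to 0.17) and 2 of 24 libraries correlated best with their own number. Over single genes, 5097 of 5301 values stayed on their side of the threshold, 70 of these being uncalled values that changed sign. Another 122 lost a call with the sign kept, and 66 gained a call. The remaining 16 were called values that changed sign, and these lost their call too. Read numbers were low for the rare tRNAs: the 8 untested ones had 1 to 19 reads at most in a library. The reason for this was not tested.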

Other observations

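Markers of other kidney cells also differed between the groups. The 5 injured tubule markers, Havcr1 among them, summed to 33708 to 53008 normalized counts in B-IRI PolgD257A and 6947 to 30657 in B-IRI Polg+/+, against 437 to 576 in sham PolgD257A and 355 to 491 in sham Polg+/+ kidneys; 5 of 5 rose after B-IRI in each genotype (limma). The 5 markers of the thick ascending limb, a tubule segment rich in mitochondria, summed to 68932 to 117480 in B-IRI PolgD257A and 111281 to 134587 in B-IRI Polg+/+, against 94035 to 130784 in sham PolgD257A and 101059 to 128079 in sham Polg+/+ kidneys; after B-IRI 4 of 5 fell in PolgD257A, and 1 rose and 1 fell in Polg+/+ kidneys. The 8 markers of the distal convoluted tubule and collecting duct averaged a sum of 34019 in B-IRI PolgD257A and 48796 in B-IRI Polg+/+, against 51779 in sham PolgD257A and 57295 in sham Polg+/+ kidneys, and the 4 fibroblast markers 9584, 6265, 2495 and 2653 in the same order of groups. The 7 immune markers averaged 1606, 1242, 987 and 956 and the 4 endothelial markers 3879, 3132, 3693 and 3276 normalized counts in that order. After B-IRI in PolgD257A kidneys 5 of 8 distal and collecting duct markers fell, and 3 of 4 fibroblast markers rose and 1 fell (limma). Of the immune markers 2 of 7 rose, and of the endothelial 2 of 4 rose and 1 fell. In Polg+/+ kidneys 4 fell and 1 rose, 3 rose and 1 fell, 2 rose, and 1 fell, in that order of lists. Over all genes 30.2% rose and 30.3% fell in PolgD257A, and 21.4% and 19.8% in Polg+/+ kidneys. Between genotypes after B-IRI, 5 of 5 thick ascending limb and 6 of 8 distal and collecting duct markers were lower in PolgD257A kidneys (limma). Higher there were 4 of 5 injured tubule, 3 of 4 fibroblast, 3 of 4 endothelial and 3 of 7 immune markers. In that comparison 14.3% of all genes were higher and 15.2% lower. No marker of these lists was at 0, and their part in the mitochondrial differences was not tested.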
